A study of Mus musculus with 18 samples.

Results

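Complement genes were followed in mice carrying a SOD1 mutation and in wildtype mice, in ventral spinal cord tissue and in motor neurons of the spinal cord and of the facial nucleus. The 9 genes were chosen by symbol: the 3 chains of C1q (C1qa, C1qb and C1qc), the components C3 and C4b, the C1 inhibitor Serping1, and the receptors C3ar1, C5ar1 and Itgb2. Of the 18194 genes with a probe set of their own on the array, 7 were among these 9, with 12 probe sets between them. C3 had no named probe set and was not analysed here. C4b was represented by a single probe set annotated to C4a and C4b together, called the C4a/C4b probe set below. RefSeq lists the mouse C4a gene as a transcribed pseudogene and assigns the probe set's target transcript to C4b.

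Complement is a cascade of plasma and tissue proteins. C1q binds immune complexes and dying cells or synapses and starts the classical pathway, in which C4 and then C3 are cleaved and deposited on the bound surface. Serping1 blocks the proteases attached to C1q, C3ar1 and C5ar1 are receptors for the released peptides C3a and C5a, and Itgb2 is the shared beta chain of the complement receptors CR3 and CR4. In the central nervous system, microglia are the main source of C1q, and astrocytes are known to make C3 and C4.

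The 6 groups, each of 3 samples with 1 array per sample, were SOD1 mutant and wildtype ventral cord tissue, SOD1 mutant and wildtype spinal motor neurons, and SOD1 mutant and wildtype facial motor neurons. RNA was amplified with a T7-based linear method. The labels name no SOD1 allele, promoter or strain, no sex and no age, and do not explain the code D60 that every title carries. They do not say how motor neurons were picked or which samples came from the same animal, so each p-value reflects no more than the variation among the arrays at hand, some of which can be technical.

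The brightest of 5 Sod1 probe sets averaged 16.49 to 16.85 on the log2 scale in the 3 mutant groups and 16.10 to 16.51 in the 3 wildtype groups. Another was lower in mutant samples of each kind, at 9.58 against 10.01 in tissue, 9.50 against 11.17 in spinal and 9.65 against 10.60 in facial motor neurons. Which of them read the mutant transcript is not given in the sources used here. The summed intensity of 9 motor neuron markers was 322081 to 415286 on the motor neuron arrays and 205270 to 229047 on the tissue arrays. Mnx1 was close to background in facial motor neurons and, with Chat, in tissue of both genotypes. The ratio of the 3′ to the 5′ actin control probe sets, a measure of how far the amplified RNA is shortened, was 25.3 to 74.4 on the motor neuron arrays and 1.56 to 1.78 on the tissue arrays. Levels below are log2(intensity + 16) after quantile normalization over all 18 arrays. A level under 8.79, the 40th percentile of genes, is called close to background. A gene was tested where its mean over the arrays compared was above the 40th percentile, and a difference was called at an adjusted p of at most 0.05 over the 10916 genes tested in limma.

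C1qb and C1qc lie side by side with C1qa in the mouse genome, and they were the members among the C1q chains that passed the genotype test in tissue. Their upstream sequences are shown because the chains were higher together in value in mutants in tissue and in spinal, but not facial, motor neurons. No chain passed the test in spinal motor neurons. No promoter sequence was at hand for C1qa, C4b, Serping1 or Itgb2. Each is the 250 bases before the RefSeq transcription start in GRCm38.p6, both on the minus strand, at chr4:136886201-136886450 and chr4:136892915-136893164, written 5′ to 3′ along the gene. Capitals mark GAGGAA, a core bound by PU.1 of myeloid cells, or its reverse complement.
C1qb: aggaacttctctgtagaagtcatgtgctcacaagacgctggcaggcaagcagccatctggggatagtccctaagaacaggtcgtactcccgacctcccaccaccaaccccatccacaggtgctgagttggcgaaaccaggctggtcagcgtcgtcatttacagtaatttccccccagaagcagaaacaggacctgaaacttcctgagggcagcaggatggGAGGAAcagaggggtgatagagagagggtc
C1qc: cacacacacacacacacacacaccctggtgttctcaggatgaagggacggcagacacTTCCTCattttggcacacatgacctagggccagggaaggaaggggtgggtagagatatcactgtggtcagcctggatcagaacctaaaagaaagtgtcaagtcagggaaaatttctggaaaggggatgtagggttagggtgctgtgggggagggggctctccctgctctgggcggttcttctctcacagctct
Counted from the start, the match begins at −30 on the gene's own strand in C1qb and at −193 on the opposite strand in C1qc. GAGGAA was searched on both strands of 300-base windows (250 before and 50 after the start), and 28.3% of 32817 promoters held it. Of the member promoters at hand, those of C1qb and C1qc held it, and those of C3, C3ar1 and C5ar1 did not. The interferon-stimulated core GAAANNGAA was found in C5ar1 alone of the 5 member promoters listed (C1qb, C1qc, C3, C3ar1 and C5ar1), against 8.55% of all promoters. These matches are descriptions of sequence, and GAGGAA and GAAANNGAA did not overlap in a member promoter.

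C1qa, C1qb and C1qc encode the chains that assemble into C1q. In ventral cord tissue C1qb and C1qc rose in SOD1 mutant mice, 1.98-fold and 1.68-fold, and C1qa was 1.51-fold higher in value without passing the test. In tissue, C1qb had levels of 12.05, 12.39 and 12.36 in SOD1 mutant samples, against 11.36, 11.31 and 11.17 in wildtype samples. All 3 mutant samples lay above all 3 wildtype samples. The difference was 0.99 on the log2 scale (SE 0.12, adjusted p = 0.00909). Without mutant replicate 3 the adjusted p was 0.0919, and it stayed past the threshold without any other single array.

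C1qc had levels of 12.32, 12.73 and 12.51 in mutant tissue, against 11.68, 11.75 and 11.88 in wildtype tissue, again without overlap. Its difference was 0.75 (SE 0.12, adjusted p = 0.0295). This call held without mutant replicate 1 and was lost without any other single array (adjusted p from 0.0643 without wildtype replicate 3 to 0.193 without mutant replicate 3). C1qa was at 13.14, 13.58 and 13.45 in mutant tissue, against 12.80, 12.92 and 12.68 in wildtype tissue. The mutant samples were the higher ones here too, but the difference of 0.60 (SE 0.12) had an adjusted p of 0.0849. Without mutant replicate 1, C1qa passed the test, with a difference of 0.72 (adjusted p = 0.017).

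**Figure D1:**
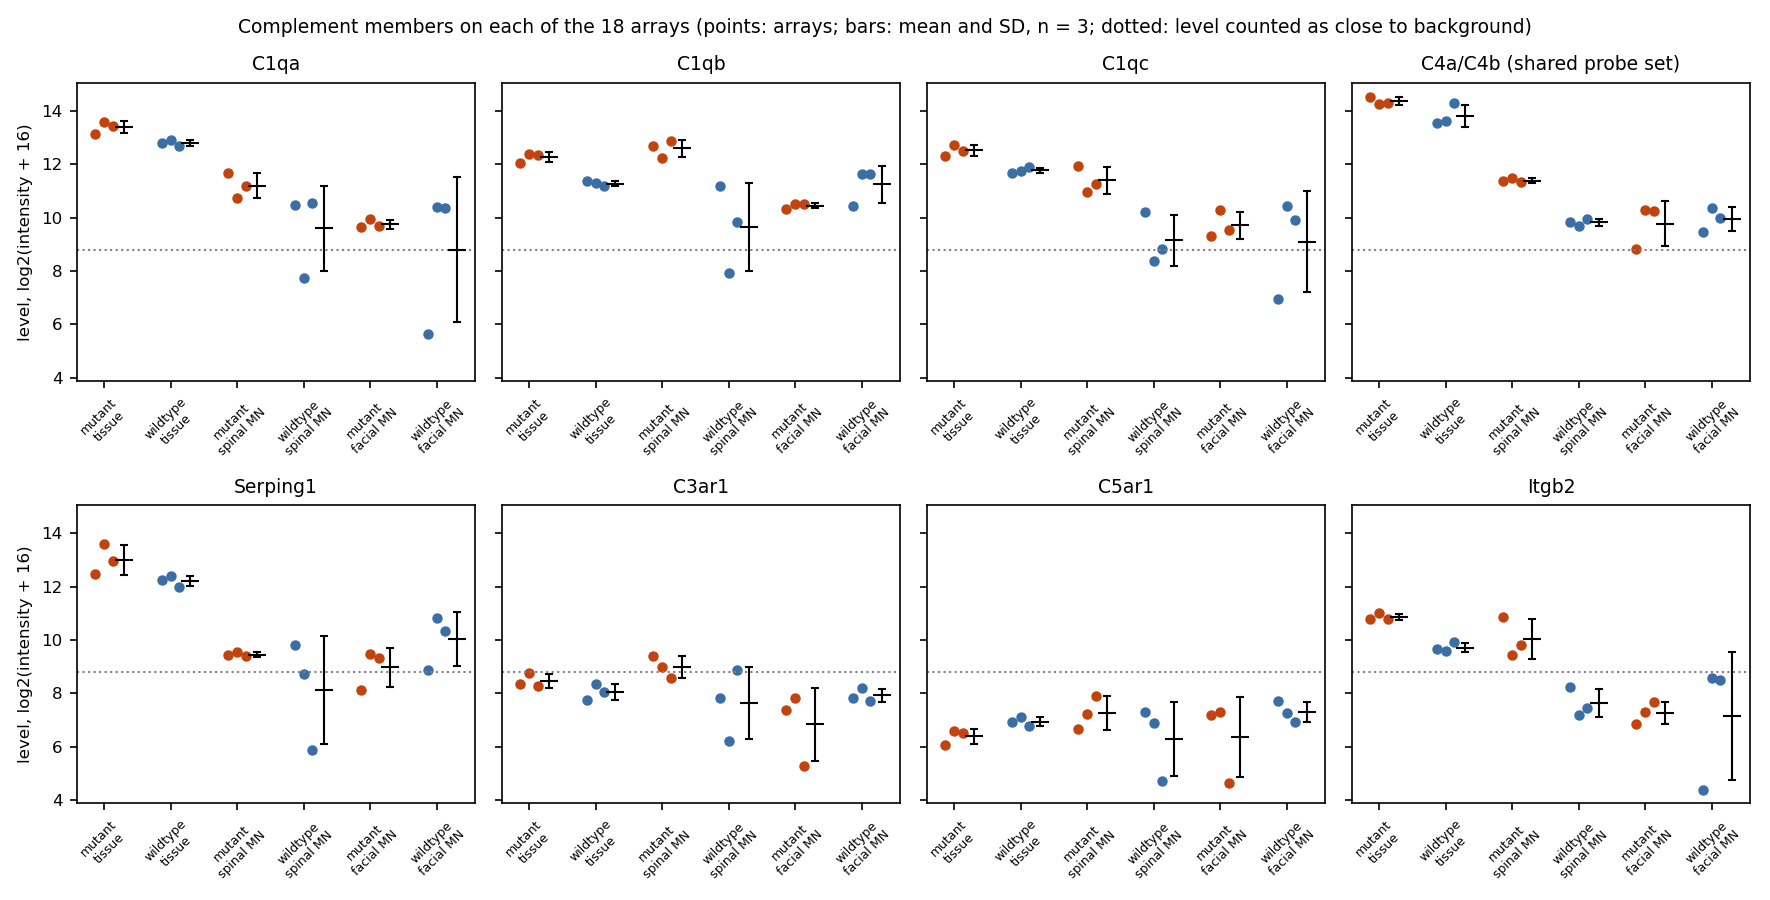
Level of each member on every array, as log2(intensity + 16) after quantile normalization, with the mean and SD of each group of 3 (MN, motor neurons) and the level counted as close to background as a dotted line. C1qb lies between 12.05 and 12.39 in mutant tissue and between 11.17 and 11.36 in wildtype tissue, and the wildtype motor neuron groups spread most for C1qa.

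The C1q chains of spinal motor neurons were higher in value in every SOD1 mutant sample than in any wildtype sample, and none of the 3 passed the test. C1qb had levels of 12.69, 12.24 and 12.87 in mutant spinal motor neurons, against 11.17, 7.91 and 9.85 in wildtype ones. Its difference was 2.96 (SE 0.63, adjusted p = 0.193). The mutant samples lay close together, while the wildtype samples covered a range wider than the difference.

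C1qc was at 11.95, 10.98 and 11.27 in mutant spinal motor neurons, against 10.23, 8.38 and 8.84 in wildtype ones, a difference of 2.25 (SE 0.48, adjusted p = 0.193). C1qa was at 11.66, 10.72 and 11.20 in mutant samples, against 10.49, 7.74 and 10.55 in wildtype samples, a difference of 1.60 (SE 0.65, adjusted p = 0.499). Wildtype replicate 2 was the lowest array for each of the 3 chains. Without it, C1qb differed by 2.09 (adjusted p = 0.0148) and C1qc by 1.86 (adjusted p = 0.0379), and both then passed the test, while C1qa differed by 0.67 (adjusted p = 0.24). Without wildtype replicate 1 the differences were 3.72 for C1qb (adjusted p = 0.00763) and 2.79 for C1qc (adjusted p = 0.0101). Over all genes, leaving out wildtype replicate 2 gave 343 called higher and 319 lower, against 6 and 1 with all arrays. Leaving out replicate 1 gave 26 and 4, so the new calls were not particular to C1q.

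The C1q chains of facial motor neurons did not share a direction. C1qb was at 10.33, 10.53 and 10.50 in mutant facial motor neurons, against 10.45, 11.64 and 11.65 in wildtype ones, a difference of −0.79 (SE 0.33, adjusted p = 0.258). C1qa was at 9.64, 9.94 and 9.68 in mutant samples, against 5.65, 10.39 and 10.35 in wildtype samples, a difference of 0.96 (SE 1.07, adjusted p = 0.674). C1qc was at 9.32, 10.27 and 9.55 in mutant samples, against 6.94, 10.44 and 9.92 in wildtype samples, a difference of 0.62 (SE 0.80, adjusted p = 0.721). The low wildtype value of C1qa and of C1qc belonged to replicate 1 in each case. Without that array C1qa differed by −0.61 (adjusted p = 0.344) and C1qc by −0.46 (adjusted p = 0.563), so that the sign of these 2 chains rested on 1 array.

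The groups were ordered alike for C1qa and C1qc. Mutant tissue was highest and wildtype tissue next, followed by mutant spinal motor neurons. For C1qa these first 3 groups were apart from each other and from the rest, with means of 13.39 ± 0.22, 12.80 ± 0.12 and 11.19 ± 0.47 (SD, n = 3 each), and the neighbouring groups below them overlapped. For C1qb the order was another one, with mutant spinal motor neurons (12.60 ± 0.32) and mutant tissue (12.27 ± 0.19) overlapping at the top, and wildtype tissue (11.28 ± 0.10) overlapping wildtype facial motor neurons (11.25 ± 0.69).

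C1qb was read by 3 probe sets, and the plot of members with several probe sets shows where they differ. With every probe set in the fit, the other 2 were 0.93 and 0.91 higher in mutant tissue (adjusted p = 0.0441 and 0.091), and 2.88 and 1.67 higher in mutant spinal motor neurons (adjusted p = 0.54 and 0.321). They were −0.50 and −0.47 in facial motor neurons (adjusted p = 0.71 and 0.419). The probe sets thus shared the sign of the genotype difference in each kind of sample.

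**Figure D2:**
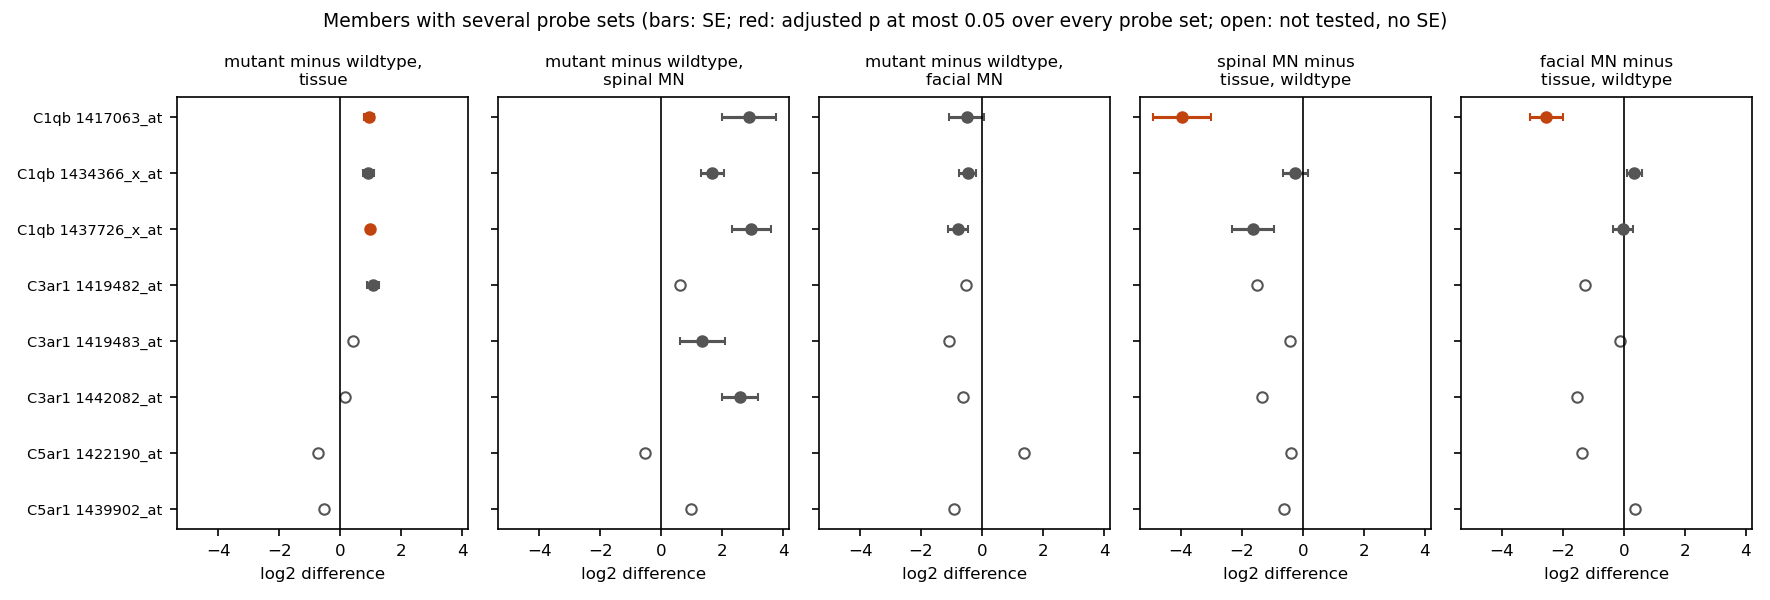
Log2 difference for each probe set of C1qb, C3ar1 and C5ar1 in 5 comparisons (panels; MN, motor neurons), with the SE as bars, filled red where the adjusted p over every probe set was at most 0.05, and open circles where the probe set was not tested. The 3 C1qb probe sets stand on the same side of 0 for the genotype differences, and 1 of them stands apart from the other 2 in wildtype motor neurons against tissue.

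C4 is cleaved by the proteases attached to C1q, and its larger fragment stays on the target surface. The C4a/C4b probe set was at 14.54, 14.27 and 14.30 in mutant tissue, against 13.54, 13.62 and 14.29 in wildtype tissue. The third wildtype array reached the mutant level, and the difference of 0.55 (SE 0.18) had an adjusted p of 0.328. Without that array the difference was 0.79 (adjusted p = 0.024).

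The C4a/C4b probe set varied little within either group of spinal motor neurons (SD 0.08 in mutant and 0.13 in wildtype samples). It was at 11.36, 11.48 and 11.33 in mutant spinal motor neurons, against 9.83, 9.68 and 9.95 in wildtype ones, 2.97-fold higher in mutant samples. The groups were 1.38 apart at their nearest arrays, and the difference of 1.57 (SE 0.27) had an adjusted p of 0.0832. Without wildtype replicate 1 or replicate 2 the adjusted p was 0.0481 and 0.0174, with differences of 1.57 and 1.5. Over all genes those fits called 26 higher and 4 lower, and 343 higher and 319 lower, against 6 and 1 with all arrays. Wildtype replicate 2, which was lowest for C1q, was at 9.68 also the lowest, but near the 9.83 and 9.95 of the other arrays for this probe set. Its facial motor neuron levels were 8.81, 10.27 and 10.24 in mutant samples, against 9.46, 10.38 and 9.99 in wildtype samples, a difference of −0.17 (SE 0.45, adjusted p = 0.874).

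Serping1 encodes the C1 inhibitor, which inactivates the proteases of the C1 complex. It was at 12.47, 13.59 and 12.94 in mutant tissue, against 12.24, 12.38 and 12 in wildtype tissue. The groups did not overlap but the mutant samples spread widely, and the difference of 0.79 (SE 0.24) had an adjusted p of 0.285. Without mutant replicate 1, the lowest mutant array, the difference was 1.06 (adjusted p = 0.0334).

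Serping1 was too dim for the test in spinal motor neurons, at 9.42, 9.54 and 9.39 in mutant samples, against 9.80, 8.72 and 5.88 in wildtype samples. Its facial motor neuron levels were 8.12, 9.47 and 9.31 in mutant samples, against 8.88, 10.83 and 10.35 in wildtype samples, a difference of −1.05 (SE 0.57, adjusted p = 0.358). The arrays of the 2 genotypes overlapped in both kinds of motor neuron.

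Itgb2 encodes the integrin beta chain that pairs with Itgam to form CR3, a receptor for a C3 fragment, on microglia and leukocytes. It rose 2.21-fold in mutant tissue, with levels of 10.77, 10.99 and 10.80 in mutant samples, against 9.65, 9.57 and 9.91 in wildtype samples. The difference was 1.14 (SE 0.15, adjusted p = 0.00931). The adjusted p was 0.0504 without wildtype replicate 2 and 0.0811 without mutant replicate 3. In spinal motor neurons Itgb2 was at 10.86, 9.42 and 9.81 in mutant samples, against 8.22, 7.20 and 7.46 in wildtype samples. All wildtype values were close to background, so no fold is given, and the difference of 2.40 (SE 0.58) had an adjusted p of 0.274. Its 6 facial motor neuron values were all close to background, at 6.83, 7.28 and 7.66 in mutant samples, against 4.39, 8.58 and 8.51 in wildtype samples, and Itgb2 was not tested there.

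C3ar1 and C5ar1, the receptors for C3a and C5a, were close to background almost throughout. C3ar1 averaged 8.47 ± 0.25 in mutant tissue and 8.05 ± 0.29 in wildtype tissue, and 8.99 ± 0.40 in mutant spinal motor neurons and 7.63 ± 1.34 in wildtype ones (SD, n = 3 each). C5ar1 averaged 6.38 ± 0.29 in mutant tissue and 6.93 ± 0.16 in wildtype tissue, and 7.26 ± 0.62 in mutant spinal motor neurons and 6.30 ± 1.38 in wildtype ones. The mutant tissue samples of C5ar1 all lay below the wildtype ones, at levels close to background. In facial motor neurons C3ar1 averaged 6.83 ± 1.35 in mutant and 7.92 ± 0.26 in wildtype samples, and C5ar1 averaged 6.37 ± 1.5 in mutant and 7.29 ± 0.39 in wildtype samples. In the fits with 1 probe set per gene, neither receptor was tested in any comparison.

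With every probe set in the fit, the one used for C3ar1 passed the brightness filter in spinal motor neurons. It was 1.35 higher in mutant samples there (SE 0.74, adjusted p = 0.629), and the genotypes overlapped. The other probe sets of C3ar1 did not give the same picture in each kind of sample. One of them was 1.08 higher in mutant tissue (SE 0.20, adjusted p = 0.0588) and too dim in spinal motor neurons. The remaining one was 2.59 higher in mutant spinal motor neurons (SE 0.60, adjusted p = 0.321) and too dim in tissue. All 3 C3ar1 probe sets were too dim in facial motor neurons, with differences of −0.53 to −1.09. The 2 C5ar1 probe sets had opposite signs in both kinds of motor neuron and were not tested.

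**Figure D3:**
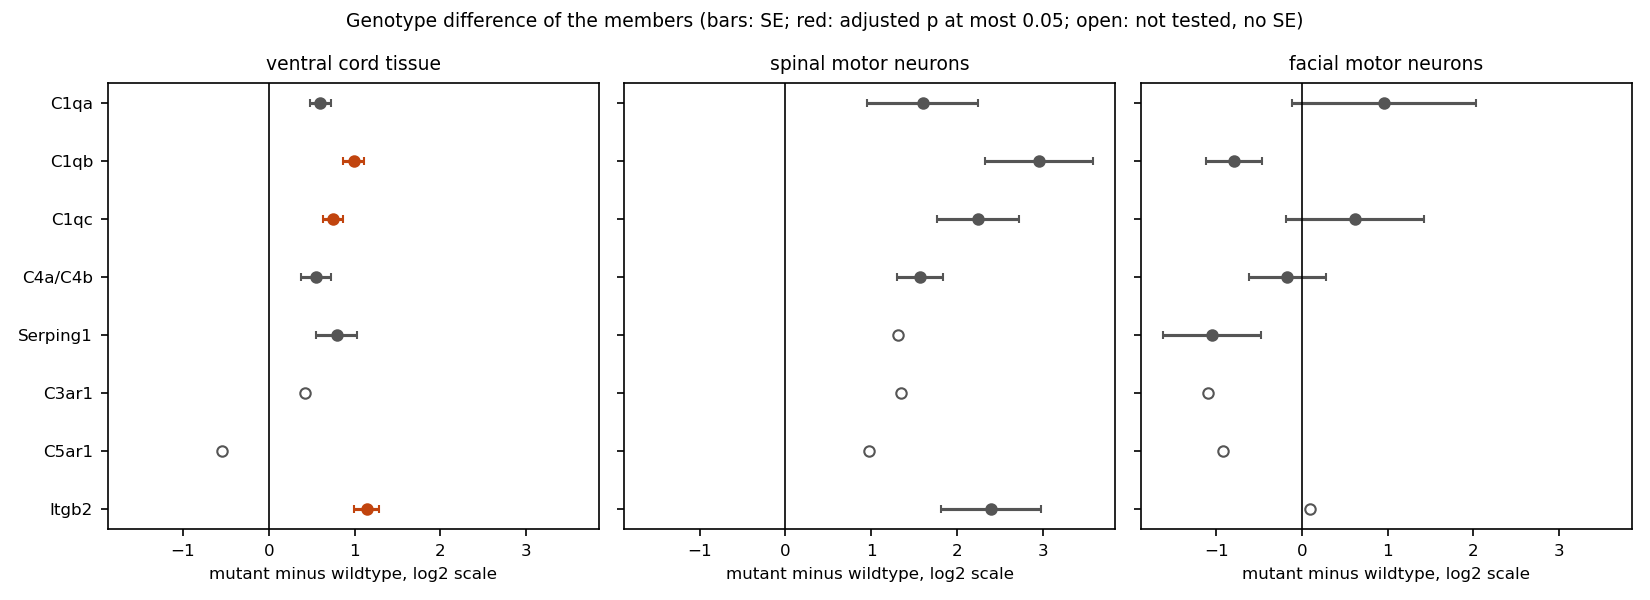
SOD1 mutant minus wildtype difference of each member on the log2 scale in the 3 kinds of sample, with the SE as bars, red where the adjusted p was at most 0.05 and open where the gene was too dim to test. C1qb, C1qc and Itgb2 passed the test in tissue, and the spinal motor neuron differences of C1qb (2.96), C1qc (2.25) and Itgb2 (2.40) are larger with wider errors. Itgb2 was close to background in wildtype spinal motor neurons and passed the brightness filter through the mutant arrays, so it had to differ.

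Counted over the members, 5 of the 7 with a probe set of their own were tested in tissue, and 3 of these 5 were called higher and 0 lower. Leaving out 1 array gave 5 calls without mutant replicate 1, 1 without wildtype replicate 2 and 0 without mutant replicate 3. Over all genes these fits called 97, 18 and 10 higher and 22, 6 and 3 lower, against 54 and 14 with all arrays. Among all genes tested in tissue 0.495% were called higher and 0.128% lower. All 5 tested members had every mutant array above every wildtype array, which held for 7.05% of all genes. Their median difference was 0.79, against −0.01 over all genes.

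In spinal motor neurons 4 of the 7 were tested and 0 were called in either direction. Among all genes there, 0.055% were called higher and 0.00916% lower, and 1036 genes were under an unadjusted p of 0.05, among them all 4 tested members. These 4 had every mutant array above every wildtype array, against 6.91% of all genes, but nothing is read from that count. Itgb2 was close to background in all wildtype samples and passed the brightness filter through the mutant arrays, so it had to differ. The 3 members too dim for the test (Serping1, C3ar1 and C5ar1) overlapped between genotypes.

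In facial motor neurons 4 of the 7 were tested and 0 were called, with 2 higher and 2 lower in value and a median of −0.09, against 0.02 over all genes. limma called 0% of genes in that comparison, where 1949 genes were under an unadjusted p of 0.05, 1 of them a tested member. None of the 4 had every mutant array above every wildtype array, which held for 13% of all genes.

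The difference between these differences was tested directly. The mutant-minus-wildtype difference in spinal motor neurons minus that in tissue was 1.97 for C1qb (SE 0.77, adjusted p = 0.531), 1.5 for C1qc (SE 0.53, adjusted p = 0.514) and 1.26 for Itgb2 (SE 0.53, adjusted p = 0.542). It was 1.0 for C1qa, 0.52 for Serping1 and 1.02 for the C4a/C4b probe set, and 0 of the 5 tested members passed. Over all genes 0.055% passed. Set against facial motor neurons, the same difference was 3.75 for C1qb (SE 0.82, adjusted p = 0.22), 1.63 for C1qc (adjusted p = 0.672), 2.37 for Serping1 (adjusted p = 0.558) and 1.74 for the C4a/C4b probe set (SE 0.54, adjusted p = 0.439). There 0 of 4 tested members passed, against 0% of all genes, with 986 genes under an unadjusted p of 0.05. Without wildtype spinal replicate 1, C1qb passed against facial motor neurons (4.51, adjusted p = 0.0345), and C1qc passed against tissue (2.04, adjusted p = 0.0424).

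As a sum, markers of microglia moved with C1q between the genotypes of tissue and of spinal motor neurons. The summed intensity of 16 microglia markers, a list that holds no complement gene, was 116965 to 126496 on mutant tissue arrays and 71303 to 76863 on wildtype tissue arrays. It was 64097 to 89561 in mutant spinal motor neurons and 12747 to 31317 in wildtype ones, without overlap. The facial motor neuron ranges were 21613 to 25093 in mutant samples and 16168 to 30807 in wildtype samples, and overlapped.

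By test, 8 of the 16 microglia markers were called higher in mutant tissue, with a median of 0.52, against 0.495% of all genes called higher. In mutant spinal motor neurons 2 of the 12 tested were called higher, with a median of 1.98, against 0.055% of all genes. For facial motor neurons it was 0 of 8, with a median of −0.21, against 0% of all genes. Of the 16 markers, 4 (Gpr34, P2ry12, Tmem119 and Trem2) were close to background in mutant spinal motor neurons and 7 in wildtype ones. Tmem119 was close to background in mutant but not in wildtype spinal motor neurons. Of the 12 tested there, 11 were higher in value in mutants and 1 was lower. Cd68, Fcer1g, Mpeg1 and Siglech were close to background in wildtype but not in mutant spinal motor neurons. Any of them that was tested there passed the brightness filter through the mutant arrays and had to be higher. The count and median for spinal motor neurons are therefore not a result about the markers. The part of microglial RNA in the complement differences was not tested, and in these bulk samples a change in the number of cells and a change in RNA per cell cannot be told apart.

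Wildtype spinal replicate 2 and wildtype facial replicate 1, the arrays with the lowest C1q, also had the lowest sums of these markers. Within a group the orders were not always alike. Among mutant spinal motor neurons, replicate 2 was lowest in C1q, and replicate 3 had the lowest marker sum, 64097. The mean of the C1q chains was 12.10, 11.31 and 11.78 in mutant spinal motor neurons, against 10.63, 8.01 and 9.75 in wildtype ones, and wildtype replicate 2, at 8.01, had the marker sum of 12747. The facial motor neuron means were 9.77, 10.25 and 9.91 in mutant samples, against 7.68, 10.82 and 10.64 in wildtype samples, and wildtype replicate 1, at 7.68, had the marker sum of 16168.

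**Figure D4:**
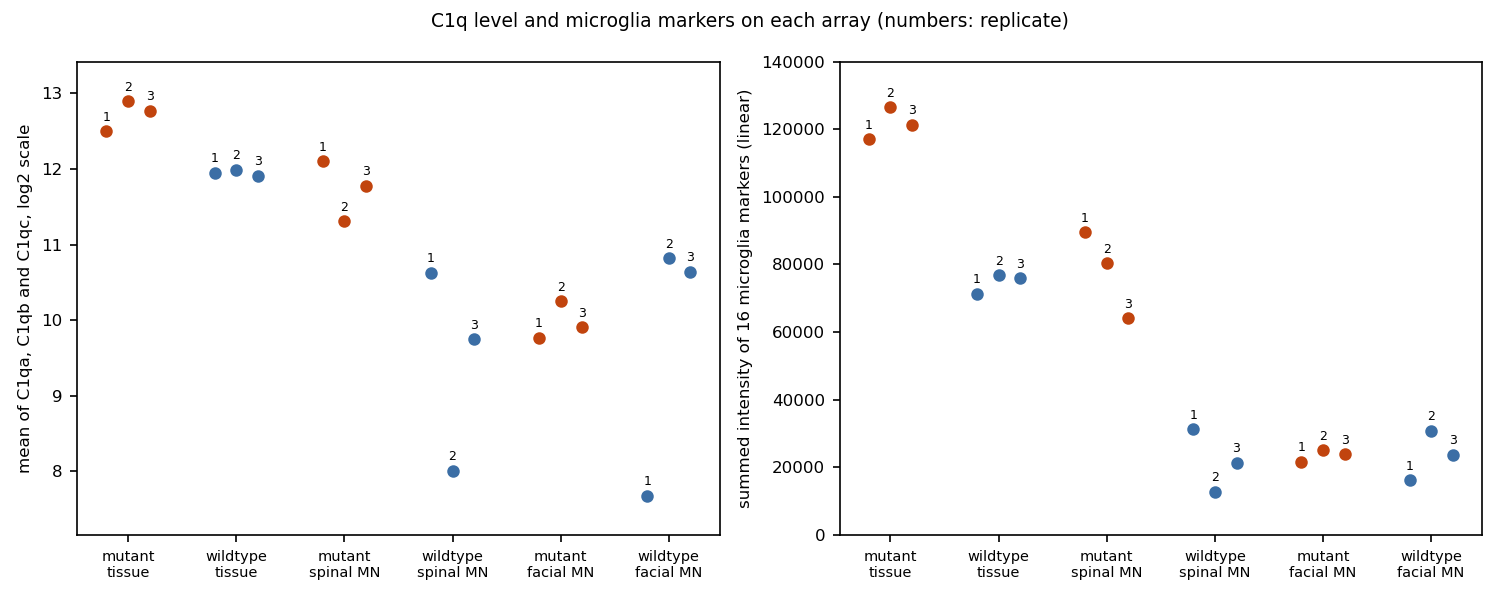
Mean log2 level of C1qa, C1qb and C1qc (left) and summed linear intensity of 16 microglia markers (right) on each array, numbered by replicate, in the 6 groups (MN, motor neurons). The mutant tissue and mutant spinal motor neuron arrays stand above their wildtype arrays in both panels, and wildtype spinal replicate 2 (8.01) and wildtype facial replicate 1 (7.68) are the lowest in C1q.

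Other cell types were read from their own lists. The astrocyte sum was 189627 to 200404 in mutant spinal motor neurons and 154902 to 185390 in wildtype ones, and 544635 to 595765 in mutant tissue and 505127 to 521920 in wildtype tissue. The neutrophil and lymphocyte sum was 14900 to 22903 in mutant tissue and 13966 to 18149 in wildtype tissue, where 5 of 10 markers were close to background in each genotype. Of the 5 tested in tissue, 4 were higher in value in mutants and 0 were called, with a median of 0.25. For these markers, 9 of 10 were close to background in mutant spinal motor neurons and 10 of 10 in wildtype ones. The endothelial sum was 3251 to 4353 in mutant spinal motor neurons and 4103 to 8685 in wildtype ones. The actin ratio was 30.7 ± 7.35 in mutant spinal motor neurons and 46.4 ± 9.07 in wildtype ones, and 1.64 ± 0.119 in mutant tissue and 1.63 ± 0.0586 in wildtype tissue (SD, n = 3 each). With this ratio as a covariate in spinal motor neurons, the genotype differences were 2.73 for C1qa (adjusted p = 1), 4.19 for C1qb (adjusted p = 0.363), 3.57 for C1qc (adjusted p = 0.167) and 3.59 for Itgb2 (adjusted p = 0.671). Over all genes that fit called 0, against 7 without the covariate, and 316 genes were under an unadjusted p of 0.05, against 1036. The mean ratio was nearly the same in the genotypes of tissue, but the covariate still changed the calls there. Over all genes that fit called 112 higher and 31 lower in tissue, against 54 and 14 without the covariate.

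The genes whose profile was most like the C1q mean were sought among 10049 genes that passed the brightness filter in both tissue and spinal motor neurons, by the lower of the Pearson correlations over the 6 tissue arrays and over the 6 spinal motor neuron arrays. The first 5 were Cd68 (r = 0.996 in tissue and 0.992 in spinal motor neurons), a lysosomal protein of phagocytes, Ly86 (0.988 and 0.99), Tyrobp (0.987 and 0.999), the signalling adaptor of microglial receptors, Igtp (0.963 and 0.965), an interferon-induced GTPase, and Fcer1g (0.962 and 0.981), an adaptor of Fc receptors. Cd68 was 1.30 higher in mutant tissue and 2.46 higher in mutant spinal motor neurons. Cd68 and Fcer1g were close to background in wildtype spinal motor neurons and passed the filter there through the mutant arrays. For the C4a/C4b probe set the first 5 were other genes: Parp3 (0.937 and 0.927), Tapbp (0.908 and 0.884), which loads peptides on MHC class I, Psph, Lrwd1 and Tpcn1. Each correlation runs over arrays of both genotypes that share the same normalization, so it is a description.

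In wildtype mice, C1qa, C1qc and Serping1 were lower in motor neurons than in tissue. In spinal motor neurons C1qa averaged 9.59 ± 1.61, against 12.80 ± 0.12 in tissue, 9.22-fold lower (difference −3.20, SE 0.65, adjusted p = 0.00285). C1qc averaged 9.15 ± 0.96 in spinal motor neurons and 11.77 ± 0.10 in tissue, 6.15-fold lower (adjusted p = 0.000892). Serping1 fell by 4.07 (adjusted p = 0.00276), to a mean close to background. Serping1 passed the brightness filter there through the tissue arrays, so it had to differ. The C4a/C4b probe set averaged 9.82 ± 0.13 in spinal motor neurons and 13.82 ± 0.42 in tissue, 15.9-fold lower (adjusted p = 5.57e-06).

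These values moved with single arrays. Without wildtype spinal replicate 2, the lowest C1qa array, C1qa differed by −2.28 (adjusted p = 2.85e-05). Serping1 differed by −2.95 without wildtype spinal replicate 3 (adjusted p = 0.00061) and by −4.91 without replicate 1 (adjusted p = 0.000651).

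In facial motor neurons C1qa was 16-fold lower than in tissue (difference −4.00, adjusted p = 0.0133), C1qc 6.39-fold lower (difference −2.68, adjusted p = 0.0167), Serping1 4.55-fold lower (adjusted p = 0.00266) and the C4a/C4b probe set 14.6-fold lower (adjusted p = 8.69e-06). The C1qa and C1qc folds rested in part on wildtype facial replicate 1. Without it C1qa differed by −2.43 (adjusted p = 2.17e-07) and C1qc by −1.60 (adjusted p = 3.19e-05). The largest differences leaving out 1 array were −4.80 for C1qa and −3.35 for C1qc, both without replicate 2, and C1qc did not pass without wildtype tissue replicate 3 (adjusted p = 0.0531). Counted over the members, 3 of 4 tested members were called lower in each kind of motor neuron. In the spinal ones Serping1 passed the brightness filter through the tissue arrays and had to differ. The spinal count is therefore not a result about the members. Among all genes 23.1% were called lower and 35.5% higher in spinal motor neurons, and 26.9% lower and 41.3% higher in facial motor neurons. The median over all genes was 0.22 in both comparisons, and members are to be read against that shift. When each array was instead shifted to a common median, the median over all genes was 0.69 in spinal and 0.77 in facial motor neurons. The calls then split into 5517 higher and 1498 lower in spinal motor neurons, against 3880 and 2524 here, and into 6334 and 1737 in facial motor neurons, against 4510 and 2940 here.

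C1qb did not follow the other chains with the probe set used for it, and its probe sets disagreed. It differed by −1.64 in spinal motor neurons (SE 0.67, adjusted p = 0.0636) and by −0.03 in facial motor neurons (SE 0.31, adjusted p = 0.933). With every probe set in the fit, another C1qb probe set differed by −3.97 (adjusted p = 0.00751) in spinal and −2.54 (adjusted p = 0.00384) in facial motor neurons, and the remaining one by −0.25 (adjusted p = 0.626) and 0.35 (adjusted p = 0.242). Which of them reads C1qb in motor neurons cannot be told from these values. The microglia markers were lower as well, 9 of 13 tested in spinal and 10 of 12 tested in facial motor neurons by test, with a median of −1.66 in each. Among all genes 23.1% and 26.9% were called lower. Of the 16 markers, 7 were close to background in wildtype spinal and 9 in wildtype facial motor neurons, against 0 in wildtype tissue. Those of them that were tested passed the brightness filter through the tissue arrays and had to be lower. The counts are therefore not a result about the markers. The actin ratio did not overlap between motor neurons and tissue. The part of microglial RNA or of the actin ratio in these differences was not tested.

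**Figure D5:**
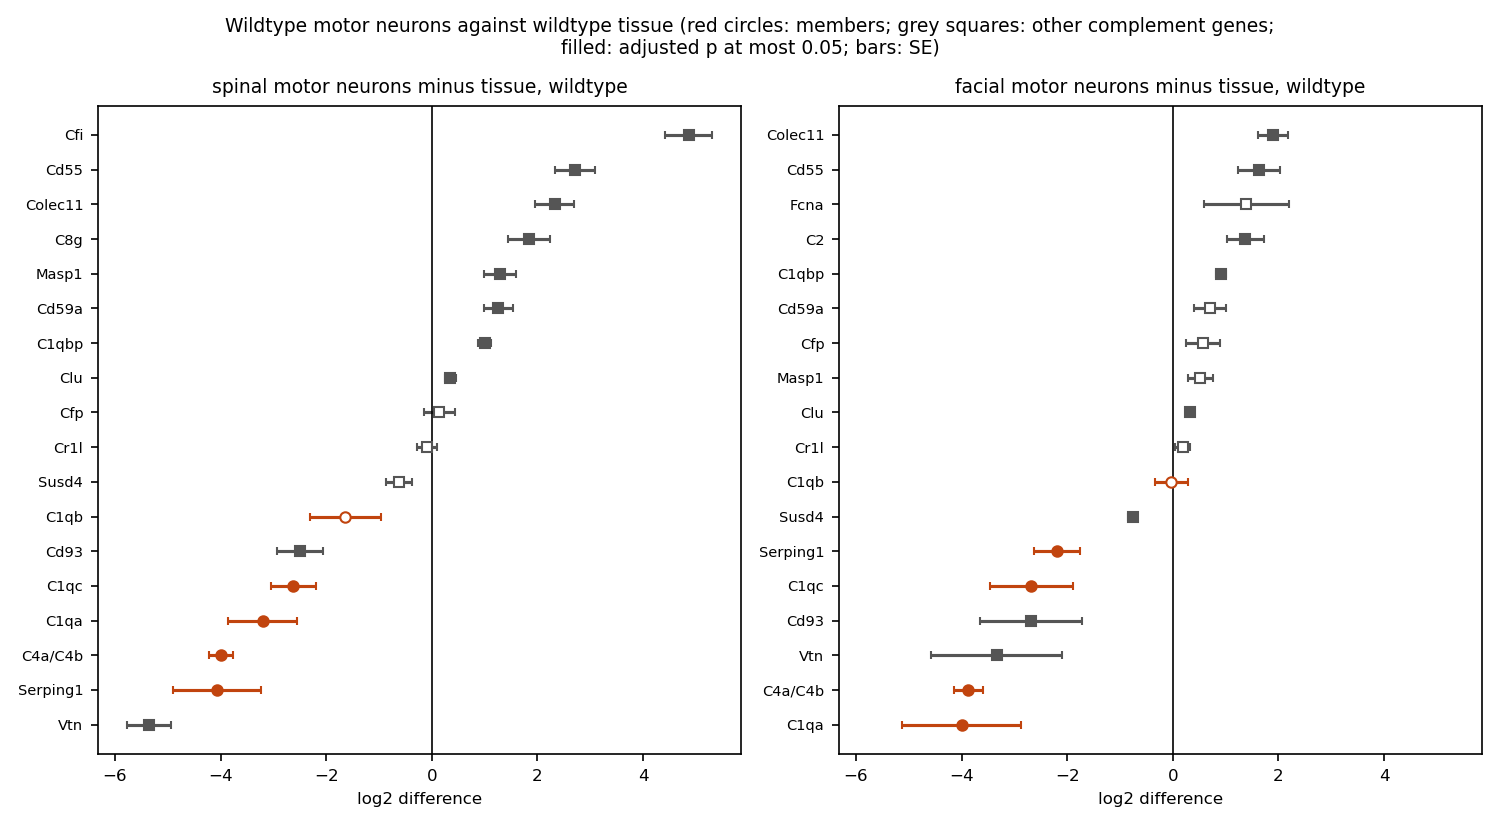
Log2 difference of wildtype spinal (left) and facial (right) motor neurons minus wildtype ventral cord tissue for the tested members, with the C4a/C4b probe set (red circles), and other complement genes (grey squares), with the SE as bars and filled where the adjusted p was at most 0.05. C1qa, C1qc, Serping1 and the C4a/C4b probe set stand below 0 in both panels, while Cfi (4.86) and Cd55 (2.71) stand highest in spinal motor neurons. In the left panel Serping1 passed the brightness filter through the tissue arrays, and Cfi through the motor neuron arrays.

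A wider list of 44 complement genes, 36 of them on the arrays, was read in the same comparisons. Between genotypes none was called in any kind of sample: 0 of 11 tested in tissue, 0 of 13 in spinal motor neurons and 0 of 15 in facial motor neurons. With 0.495% of all genes called higher and 0.128% lower in tissue, 0.055% and 0.00916% in spinal motor neurons and 0% in facial motor neurons, a count of 0 is near the background and is no result about these genes. Their medians were 0.08, −0.21 and −0.22. The smallest p-values in tissue belonged to Clu, clusterin, which blocks the terminal complex, at 16.94 ± 0.02 in mutant and 16.78 ± 0.06 in wildtype samples (adjusted p = 0.261), and Vtn, vitronectin, at 14.83 ± 0.11 in mutant and 14.60 ± 0.16 in wildtype samples (adjusted p = 0.482). For spinal motor neurons they belonged to C8g, a chain of the terminal component C8, with a difference of −1.47 (adjusted p = 0.509), and to Cfp, properdin, which stabilises the alternative pathway convertase, with 0.75 (adjusted p = 0.522). Between the genotypes of facial motor neurons they belonged to Clu with −0.22 (adjusted p = 0.226) and Cr1l with −0.40 (adjusted p = 0.288). Itgam, the alpha chain that pairs with Itgb2 in CR3, was 0.41 higher in mutant tissue (adjusted p = 0.526) and too dim in motor neurons.

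The same list was read in wildtype motor neurons against tissue. For spinal motor neurons 8 of 13 tested were called higher and 2 lower, against 35.5% and 23.1% of all genes. Cfi, Colec11 and C8g were close to background in tissue and passed the brightness filter through the motor neuron arrays, so they had to differ and the count is not a result about the list. Cd55, which takes apart convertases on the cell surface, averaged 12.35 ± 0.34 in spinal motor neurons and 9.64 ± 0.75 in tissue, 6.54-fold higher (adjusted p = 0.000332). Cd59a, which blocks insertion of the terminal complex, averaged 14.80 ± 0.24 in spinal motor neurons and 13.54 ± 0.60 in tissue, 2.39-fold higher (adjusted p = 0.00443).

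Cr1l, another membrane regulator, differed by −0.10 (adjusted p = 0.664). Cfi, a protease that cleaves C3b and C4b, had the largest rise of the tested genes of the list, at 11.87 ± 0.66 in spinal motor neurons and 7.01 ± 0.56 in tissue, where it was close to background (difference 4.86, adjusted p = 3.81e-05). Colec11, C8g, Masp1, C1qbp and Clu were the other genes called higher in spinal motor neurons, by 2.33, 1.84, 1.29, 1.0 and 0.35. Vtn fell by 5.35 and Cd93, a receptor of endothelial and myeloid cells, by 2.50. Cd93 was close to background in wildtype spinal (8.5) and facial (8.31) motor neurons. It passed the brightness filter in both comparisons through the tissue arrays, so it had to differ. Against tissue, facial motor neurons had 5 of 13 called higher: Colec11 (1.90), Cd55 (1.63), C2 (1.37), C1qbp (0.91) and Clu (0.32). The 3 called lower were Vtn (−3.33, SE 1.24, adjusted p = 0.0416), Cd93 (−2.69, SE 0.97, adjusted p = 0.0372) and Susd4 (−0.76, SE 0.09, adjusted p = 0.000176). These counts are near the 41.3% higher and 26.9% lower among all genes, and Colec11 and C2 were close to background in tissue. Cd59a differed by 0.71 in facial motor neurons and did not pass the test (adjusted p = 0.0686). Clu's difference in both comparisons was close to the shift of all genes.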

How the data were processed

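The study measured RNA from 18 mouse samples on Affymetrix expression arrays after T7-based amplification, per the labels. The authors deposited 1 table of linear intensities for 45101 probe sets. How images became intensities is not given in the sources used here. Their mean after trimming 2% at each end was 2500 on every array, while medians differed by sample kind (533 to 583 in tissue, 286 to 341 in motor neurons), so log2(intensity + 16) was quantile normalized over the 18 arrays. The platform annotation gave 34958 probe sets 1 gene symbol, 932 several and 9211 none. Where several probe sets carried one symbol alone, the brightest over all arrays stood for the gene. The C4a/C4b probe set was added to each fit as 1 more feature after the files were seen.

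Each comparison was fitted on the arrays of its groups (6, or 12 for a difference of differences) in limma 3.58.1 (R 4.3.3; lmFit and eBayes with trend), without genes under the 40th percentile, with Benjamini-Hochberg adjustment at 0.05. The code was tested on simulated data. Folds are given where both means exceeded 8.79. Array data give no counting depth, and 3 arrays a group limit the precision. No 2 arrays held identical values. Members and lists were chosen with earlier results of these data known. Named genes are all members, other complement genes past the threshold, and otherwise the 2 with the smallest p between genotypes. Itgam, Cd59a in facial motor neurons and single probe sets were added after their values were seen. Alternatives were other normalizations, pseudocounts, filters, variance models, array weights, a replicate block, an actin covariate, every probe set and leaving out each array. One further promoter motif was searched and is not reported here.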

Additional observations from a re-analysis of the deposited data

How the results depend on the processing

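Of 18 alternatives in tissue, C1qb stayed past the threshold in 16, C1qc in 11 and Itgb2 in 14 of the 16 in which it was tested. Members called in tissue, 3 here, ranged from 0 to 5 when 1 array was left out: 5 without mutant replicate 1, 1 without wildtype replicate 2 (where Itgb2 had an adjusted p of 0.0504 and C1qc 0.132), and 0 without mutant replicate 3 (C1qb 0.0919, C1qc 0.193, Itgb2 0.0811). C1qc was also lost without mutant replicate 2 (0.104), wildtype replicate 1 (0.0848) and wildtype replicate 3 (0.0643), and with no variance trend (0.0843). Over all genes the calls higher in tissue moved too, to 97 without mutant replicate 1 and 10 without mutant replicate 3, against 54 here. With all 18 arrays in one fit 0 were called, since tissue then shares the wider spread of motor neurons (adjusted p = 1 for C1qb and C1qc; Itgb2 was not bright enough). In spinal motor neurons, 0 here, 1 member was called with all 18 arrays in one fit, 3 with array weights, 2 with the replicate block and 0 to 2 leaving out 1 array. Over all genes the first 3 settings called 69, 84 and 14 higher and 65, 50 and 2 lower, against 6 and 1 here. Leaving out wildtype replicate 2 called 343 higher and 319 lower. The paired fit with the replicate block called 4 members in tissue (C1qa added, adjusted p = 0.0288) and, in spinal motor neurons, C1qb (0.0345) and C1qc (0.0406). Over all genes in tissue, this paired fit called 98 higher and 36 lower, against 54 and 14 here. It also called C1qb lower in wildtype spinal motor neurons than in tissue (0.0208) and changed no other member's call. Deviations of same-numbered arrays from their group means correlated at 0.019 to 0.303 between genotypes, and 4 (tissue), 5 (spinal) and 5 (facial) of 6 arrays correlated best with their own number, a hint from the data and not from the design. Since the labels give no shared source and not every pair exceeded 0.1, the numbers were not used as pairs. For the difference of spinal motor neurons from tissue 1 was called with array weights and 0 to 1 leaving out 1 array. For that from facial motor neurons 1 was called with all 18 arrays and 0 to 1 leaving out 1 array. Over all genes, array weights called 70 higher and 26 lower for the difference from tissue, against 5 and 1 here. All 18 arrays called 24 and 6 for that from facial motor neurons, against 0 and 0 here. In wildtype motor neurons against tissue, a filter at the 60th percentile left 1 member called in each comparison and 6 (spinal) and 4 (facial) other complement genes, since fewer were tested. Testing every probe set gave 5 members in spinal motor neurons, and no filter gave 13 other genes in facial ones.

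The actin ratio does not overlap between tissue and motor neurons, so as a covariate it extrapolates there and its values are not usable. It gave 59.41 for C1qa, 15.73 for C1qb, 36.79 for C1qc, 16.28 for Serping1 and 4.16 for the C4a/C4b probe set in facial motor neurons against tissue, with 0 members and 0 other genes called, and 1 and 1 in spinal motor neurons. Values without a call changed sign as follows. In facial motor neurons, leaving out 1 array gave −0.61 to 1.76 for C1qa, −0.46 to 1.29 for C1qc and −0.42 to 0.31 for the C4a/C4b probe set, which was 0.03 with the actin covariate. Leaving out 1 array, the difference of spinal motor neurons from tissue was −0.60 to 1.36 for Serping1 (up to 1.56 with array weights), and that from facial motor neurons −0.29 to 2.21 for C1qa. For C1qb in wildtype facial motor neurons against tissue the leave-one-out range was −0.24 to 0.37, and 0.37 passed the threshold without facial replicate 1 (adjusted p = 0.0475), with 0.30 after a common-median shift and 0.37 with array weights (adjusted p = 0.0227). The cause of these changes was not tested.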
